A study of Mus musculus with 6 samples.

Results

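The sirtuins and the enzymes that make, phosphorylate and consume NAD were examined in aortas of aged C57BL/6 mice. The set holds 10 named genes: Sirt2, Sirt3, Sirt4, Sirt5, Sirt7, Nampt, Naprt, Nadk, Parp1 and Nnmt. All 10 were found by name in the authors' table, where they take 18 rows, among 8690 gene names in 14044 rows. Total RNA was sequenced from 3 Sirt2-KO aortas (replicates 4, 7 and 8) and 3 WT aortas (replicates 2, 4 and 8). The Sirt2-KO mice lack Sirt2 by genotype, and the WT mice carry no named allele. Neither group is labelled with a treatment. All 6 are labelled C57BL/6 and aged. Their age in months, sex and substrain, and the design of the knockout allele, do not appear in those labels.

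Sirtuins are enzymes that remove acetyl and other acyl groups from proteins and break down a molecule of NAD each time they do so, which ties their activity to the NAD supply of the cell. Most NAD in mammalian tissue is rebuilt from the nicotinamide that such reactions release, a salvage route that starts with Nampt. A separate route from nicotinic acid starts with Naprt. Nadk converts NAD to NADP, Parp1 spends NAD on poly(ADP-ribose) after DNA damage, and Nnmt methylates nicotinamide and so removes it from salvage. In the vessel wall these genes are studied for their part in ageing, stress resistance and smooth muscle and endothelial function.

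To show the start of 3 of these genes, promoter sequence is given for Sirt2, the targeted gene, for Nadk, the gene with the smallest p among the others, and for Parp1, the only other gene whose Sirt2-KO values all lay under the WT values. Each is the longest stretch free of annotated exons within 250 bases before a RefSeq start on GRCm38.p6, read 5′ to 3′ on the plus strand. Capitals mark CCAAT boxes (CCAAT), GC boxes (GGGCGG) and E-boxes (CACGTG), searched on both strands.
Sirt2, chr7:28766641-28766734: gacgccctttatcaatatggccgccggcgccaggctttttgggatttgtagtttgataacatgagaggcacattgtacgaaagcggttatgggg
Nadk, chr4:155562131-155562377: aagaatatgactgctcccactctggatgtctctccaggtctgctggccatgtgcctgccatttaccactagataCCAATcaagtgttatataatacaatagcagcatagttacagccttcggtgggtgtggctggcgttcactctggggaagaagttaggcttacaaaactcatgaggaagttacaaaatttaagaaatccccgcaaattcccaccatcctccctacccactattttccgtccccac
Parp1, chr1:180568641-180568890: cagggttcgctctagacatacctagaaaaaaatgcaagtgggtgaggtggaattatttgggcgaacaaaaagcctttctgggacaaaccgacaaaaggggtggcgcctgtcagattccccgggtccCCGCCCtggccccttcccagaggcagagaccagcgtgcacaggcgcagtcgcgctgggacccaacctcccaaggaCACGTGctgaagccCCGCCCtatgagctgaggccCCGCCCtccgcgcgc

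The Nadk window shown, before the first of 2 starts, held 1 CCAAT box, while the window before the other start held 1 GC box, 1 E-box and 0 CCAAT boxes. The Parp1 window held 3 GC boxes and 1 E-box. The Sirt2 stretch shown holds none of these letters, although its whole window of 250 bases has 1 GC box and 2 CCAAT boxes. Of 32851 RefSeq promoter windows of that length, 33.9% held a CCAAT box, 32.7% a GC box and 6.02% an E-box. The Sirt2 window was 50.0% G and C, those of Nadk 46.8% and 66% and that of Parp1 61.6%, against a median of 52.4% over all windows. These matches describe the letters only. Of the 10 genes, 8 had a window in the RefSeq table, and Naprt and Nnmt did not.

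Values are FPKM, fragments per kilobase of transcript and per unit of library size, so levels can be compared between genes. Rows of the same name were added up, and the groups were compared with limma on log2(FPKM + 1) over all 8605 genes that averaged 1 FPKM or more. No counts were given, so sequencing depth is unknown. The column sums of the listed rows lay between 367271 and 396438 FPKM. The smallest variance of FPKM across the 6 aortas in any listed row was 1.00003, and the absence of steadier transcripts can leave gene sums incomplete. Each group had 3 mice. Smooth muscle genes marked the tissue as vessel wall, with Myh11 at 645 to 998 FPKM in Sirt2-KO and 837 to 1355 FPKM in WT. Fat was also present in every sample, with summed white adipocyte markers at 9613 to 12790 FPKM in Sirt2-KO and 905 to 3386 FPKM in WT. On a first principal component holding 49.7% of the variance, Sirt2-KO replicate 4 scored -5.70 and replicates 7 and 8 scored -34.8 and -41.5, against 14 to 39.5 in WT.

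Of the 10 genes, only Sirt2 passed an adjusted p of 0.05 in limma (Benjamini-Hochberg, all genes tested), and it was lower in Sirt2-KO. This is 1 of 10, beside 2.91% of all tested genes called in either direction and 0.616% called lower. Sirt2 stayed the only call in each fit with 1 aorta left out. Of the other 9 genes 0 passed, and 3 had an unadjusted p under 0.05, as 24.8% of all tested genes did. The other 9 genes had differences between -0.22 (Parp1) and 1.54 (Sirt4) on the log2(FPKM + 1) scale. The median over the 10 was 0.10, against -0.08 over all tested genes. The 3 Sirt2-KO and 3 WT values did not overlap for 5 of the 10, Sirt2, Sirt4, Naprt, Nadk and Parp1, while 33.3% of all tested genes were apart in this way. Sirt4 was in the table and the test only through its Sirt2-KO values. Naprt and Parp1 reached the smallest variance of the listed rows only because their groups differ. Their being apart therefore follows in part from how rows were kept. Higher in Sirt2-KO were 3 of the 5 (16.0% of all tested genes) and lower 2 (17.3%). No exact two-sided permutation test of 3 against 3 can go below p = 0.1.

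**Figure D1:**
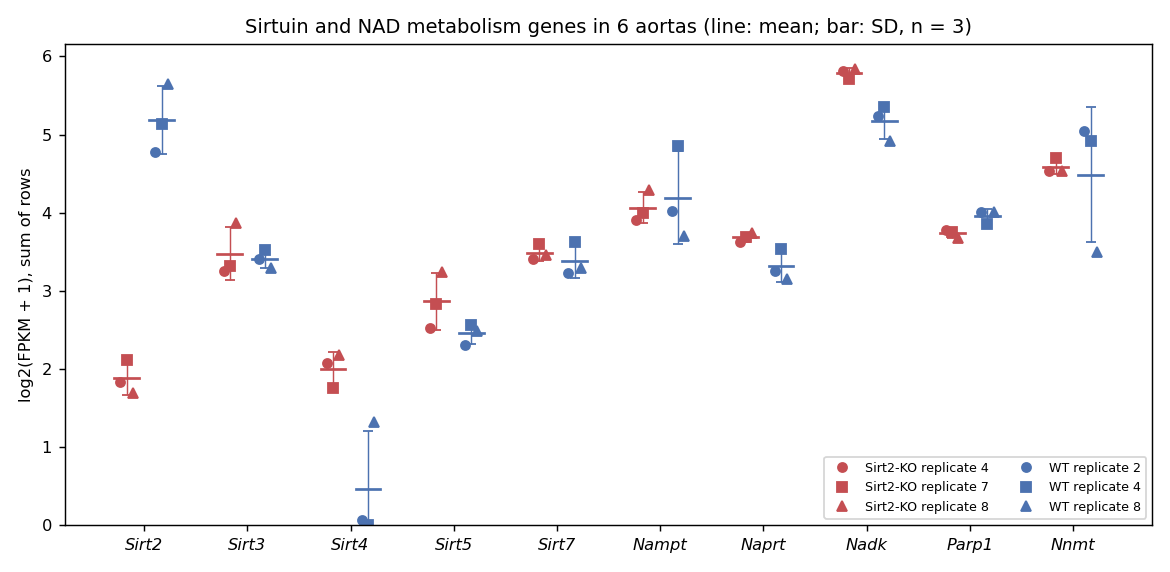
Level of each gene in each aorta on the log2(FPKM + 1) scale, rows of a name summed, with Sirt2-KO to the left of WT; lines are means and bars SD over 3 mice. Sirt2 was at 2.23 to 3.32 FPKM in Sirt2-KO and 26.5 to 49.2 FPKM in WT, while Sirt3, Sirt5, Sirt7, Nampt and Nnmt overlapped between the groups.

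Sirt2, the cytosolic sirtuin known for deacetylating tubulin, was the targeted gene and serves as the check on the labels. Its sum was 2.56, 3.32 and 2.23 FPKM in Sirt2-KO replicates 4, 7 and 8, against 26.5, 34.1 and 49.2 FPKM in WT replicates 2, 4 and 8. Every Sirt2-KO aorta was below every WT aorta. The mean was 2.70 ± 0.560 FPKM in Sirt2-KO and 36.6 ± 11.6 FPKM in WT (SD, n = 3 each). On the log2(FPKM + 1) scale it differed by -3.31 (SE 0.239, limma adjusted p = 0.00156). With any aorta left out it lay between -3.51 and -3.08, with an adjusted p of at most 0.0194, and with a pseudocount of 5 it was -2.40. In RNA from whole aortas, fewer cells of a type and less RNA per cell cannot be told apart. The WT aorta with the highest Sirt2, replicate 8, also had the highest summed smooth muscle markers (21010 FPKM, against 18530 and 11490 FPKM in WT replicates 2 and 4) and the lowest white adipocyte markers (905 FPKM). The part of cell makeup in the WT range was not tested.

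The residual Sirt2 signal was not spread over the same rows in every Sirt2-KO aorta. Row 1, the highest of 3, had 1.89 FPKM in Sirt2-KO replicate 4 and a listed 0 in Sirt2-KO replicates 7 and 8, against 18.5, 18.8 and 41.5 FPKM in WT. Row 2 was at 0.110, 3.05 and 2.01 FPKM in Sirt2-KO replicates 4, 7 and 8, against 2.59, 9.69 and 6.42 FPKM in WT. Row 3 was at 0.564, 0.269 and 0.216 FPKM in Sirt2-KO, against 5.43, 5.59 and 1.37 FPKM in WT. Rows 1 and 3 were apart between the groups, as 27.0% of all tested rows were, and row 2 overlapped. Row 1 made up 73.7% of the sum in Sirt2-KO replicate 4, and row 2 made up 91.9% in replicate 7 and 90.3% in replicate 8, while row 1 was the largest share in every WT aorta (55.2% to 84.2%). The table gives no transcript identifier, so a row cannot be tied to an exon or to the deleted part of the gene.

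Tested row by row over 13627 rows, row 1 of Sirt2 was the only called row among 17 tested rows of these genes (log2 difference -4.16, SE 0.523, limma adjusted p = 0.0270). Over all rows tested, 0.851% were called and 0.183% were called lower. Row 1 lost the call without any of 5 aortas, Sirt2-KO replicates 7 and 8 (adjusted p = 0.107 and 0.129) and WT replicates 2, 4 and 8 (0.0898, 0.0794 and 0.0715). Row 3 differed by -1.79 (adjusted p = 0.175) and row 2 by -1.47 (adjusted p = 0.291). Nfkbib, an NF-kappa-B inhibitor gene that shares 42 exonic bases with Sirt2 on the opposite strand, was at 18.4 ± 2.48 FPKM in Sirt2-KO and 16.9 ± 0.944 FPKM in WT (adjusted p = 0.606).

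**Figure D2:**
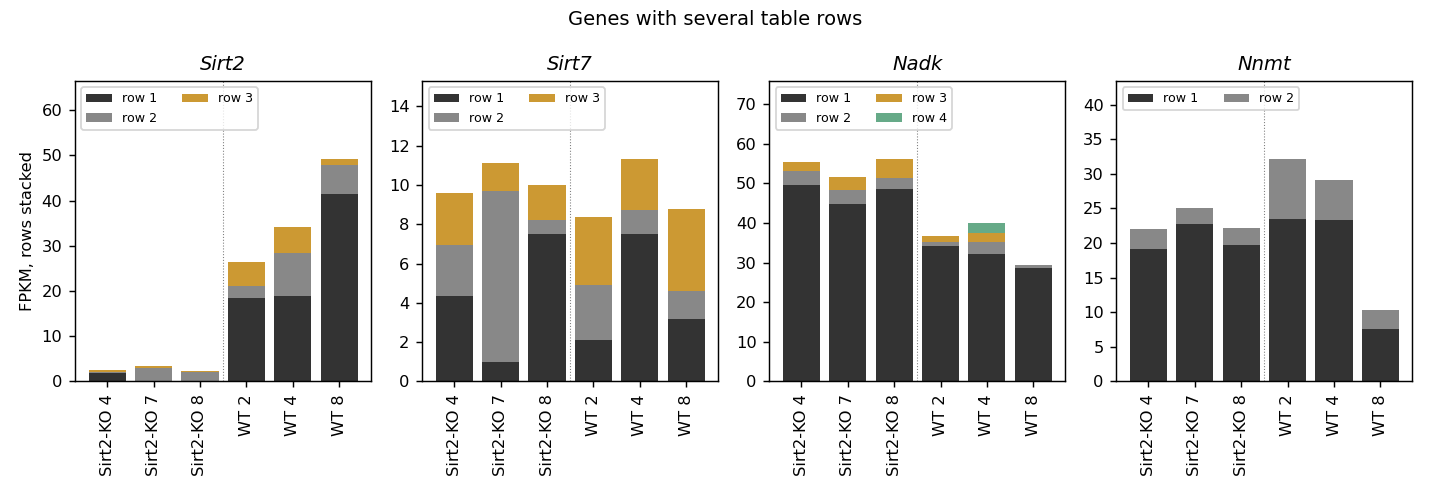
FPKM of each row, stacked, for the 4 genes with several rows, with Sirt2-KO aortas to the left of the dotted line and WT aortas to the right. Sirt7 sums stayed between 8.37 and 11.3 FPKM while its rows traded places, and row 2 of Nnmt took 9.34% to 13.3% of its sum in Sirt2-KO and 19.8% to 27.1% in WT.

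Among the mitochondrial sirtuins, Sirt4 showed the largest difference but did not pass. Sirt4 is a mitochondrial sirtuin with weak deacetylase activity that is known for restraining glutamate dehydrogenase. It was at 3.20, 2.39 and 3.50 FPKM in Sirt2-KO replicates 4, 7 and 8, against 0.0430 FPKM in WT replicate 2, a listed 0 in replicate 4 and 1.495 FPKM in replicate 8. The gene averaged 3.03 FPKM in Sirt2-KO and 0.513 FPKM in WT, so it passed the minimum of 1 FPKM only through the Sirt2-KO aortas. With SDs of 0.578 FPKM in Sirt2-KO and 0.851 FPKM in WT, it also reached the smallest variance of the table only because the groups differ. That its groups were apart therefore follows in part from how rows were kept, and its difference is given as a description. Only 8.73% of tested genes had a lower Sirt2-KO mean. The difference was 1.54 (SE 0.494, 95% interval 0.37 to 2.71, limma adjusted p = 0.126). At such levels the size depends on the pseudocount, and it was 3.45 with a pseudocount of 0.1 and 0.55 with a pseudocount of 5.

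Sirt3, the main deacetylase of the mitochondrial matrix, was at 8.52, 8.92 and 13.5 FPKM in Sirt2-KO replicates 4, 7 and 8, against 9.63, 10.4 and 8.78 FPKM in WT replicates 2, 4 and 8. The ranges overlapped, and Sirt2-KO replicate 8 held the highest value. The difference was 0.07 (95% interval -0.38 to 0.52, limma adjusted p = 0.832) and changed sign, to -0.12, without Sirt2-KO replicate 8. Sirt3 shares 418 exonic bases with Ric8a and 342 with Psmd13, both on the opposite strand, so without strand information their reads cannot be told apart there. Ric8a (16.7 ± 1.75 FPKM in Sirt2-KO and 17.5 ± 2.05 FPKM in WT) and Psmd13 (39.8 ± 4.90 FPKM in Sirt2-KO and 40.3 ± 3.43 FPKM in WT) had adjusted p of 0.799 and 0.928.

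Sirt5, which removes succinyl and malonyl groups from mitochondrial proteins, was at 4.74, 6.12 and 8.45 FPKM in Sirt2-KO replicates 4, 7 and 8, against 3.95, 4.92 and 4.61 FPKM in WT replicates 2, 4 and 8. Sirt2-KO replicates 7 and 8 lay above all WT values and replicate 4 lay among them. The difference was 0.41 (95% interval -0.12 to 0.94, limma adjusted p = 0.284). Sirt2-KO replicate 8, the highest for Sirt3, Sirt4 and Sirt5, also had the highest summed white adipocyte markers of the 6 aortas, 12790 FPKM. The part of that in these values was not tested.

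Sirt7, a sirtuin of the nucleolus, had an even sum and uneven rows. The sum was 9.58, 11.1 and 9.98 FPKM in Sirt2-KO replicates 4, 7 and 8, against 8.37, 11.3 and 8.76 FPKM in WT replicates 2, 4 and 8. The ranges overlapped, and the difference was 0.11 (95% interval -0.25 to 0.47, limma adjusted p = 0.661). Row 1 was at 4.33, 0.978 and 7.53 FPKM in Sirt2-KO and 2.09, 7.50 and 3.18 FPKM in WT. Row 2 was at 2.59, 8.72 and 0.711 FPKM in Sirt2-KO and 2.83, 1.22 and 1.42 FPKM in WT. Row 1 was lowest and row 2 highest in the same aorta, Sirt2-KO replicate 7, where row 2 made up 78.3% of the sum, against 7.13% to 33.7% in the other 5 aortas. Row 3 was at 2.66, 1.43 and 1.74 FPKM in Sirt2-KO, against 3.46, 2.60 and 4.15 FPKM in WT (difference -0.59, adjusted p = 0.390). None of its rows was called, and none was apart between the groups. Mafg, which shares 124 exonic bases with Sirt7 on the same strand, had an adjusted p of 0.645.

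Nadk, the cytosolic NAD kinase that supplies NADP, was higher in each Sirt2-KO aorta but missed the threshold. The sum was 55.3, 51.5 and 56.1 FPKM in Sirt2-KO replicates 4, 7 and 8, against 36.8, 40.0 and 29.3 FPKM in WT replicates 2, 4 and 8. The lowest Sirt2-KO aorta stood above the highest WT aorta. The mean was 54.3 ± 2.44 FPKM in Sirt2-KO and 35.4 ± 5.47 FPKM in WT (SD, n = 3 each), a 1.54-fold ratio of means. The difference was 0.62 (SE 0.140, 95% interval 0.28 to 0.95, limma adjusted p = 0.0675). Over 19 alternatives it lay between 0.49 and 0.71 and passed in 1, with sample weights (adjusted p = 0.0261).

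Row 1 made up 86.5% to 89.6% of the Nadk sum in Sirt2-KO and 80.2% to 97.7% in WT, with 49.5, 44.7 and 48.6 FPKM in Sirt2-KO and 34.1, 32.1 and 28.7 FPKM in WT. These values were apart between the groups as in the sum (difference 0.58, limma adjusted p = 0.108). Row 2 (0.84) and row 3 (1.07) overlapped between the groups. Row 4 was at 2.60 FPKM in WT replicate 4 and at most 0.0183 FPKM in the other 5 aortas, and its mean was too low to be tested. Apoa1bp, an older name of Naxe, whose enzyme repairs damaged NADH and NADPH, was at 66.6 ± 3.18 FPKM in Sirt2-KO and 49.9 ± 1.27 FPKM in WT, also apart and also short of the threshold (adjusted p = 0.0794). Summed white adipocyte markers, like Nadk, were higher in each Sirt2-KO aorta than in each WT aorta. They stood at 9613 to 12790 FPKM in Sirt2-KO and 905 to 3386 FPKM in WT. Of 19 tested markers 9 were called higher, and none was listed at 0 in a whole group. Summed adventitial fibroblast markers were apart in the same direction, at 3250 to 5726 FPKM in Sirt2-KO and 1704 to 2105 FPKM in WT, with 6 of 14 called higher. By replicate, in the order used for Nadk, white adipocyte sums were 9913, 9613 and 12790 FPKM in Sirt2-KO and 3386, 3183 and 905 FPKM in WT. Fibroblast sums were 3250, 5726 and 4805 FPKM in Sirt2-KO and 1704, 1800 and 2105 FPKM in WT. Summed macrophage markers were also apart (528 to 874 FPKM in Sirt2-KO and 184 to 499 FPKM in WT, with 1 of 17 called higher). So were mast cell markers (33.8 to 52.6 FPKM in Sirt2-KO and 8.88 to 17.2 FPKM in WT, with 2 of 4 called higher). Red blood cell markers summed to 454 to 1396 FPKM in Sirt2-KO and 248 to 368 FPKM in WT, with 0 of 5 called by limma and 4 at an unadjusted p under 0.05. The part of these cell types in the Nadk values was not tested.

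**Figure D3:**
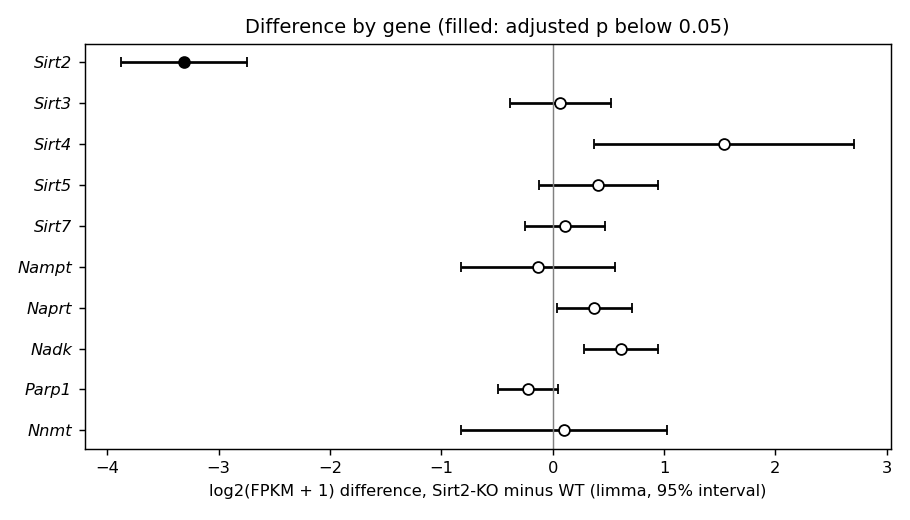
Difference of each gene on the log2(FPKM + 1) scale, Sirt2-KO minus WT, with 95% intervals from limma; a filled point passed an adjusted p of 0.05. Only Sirt2 was filled, and the intervals of Sirt4, Naprt and Nadk lay above 0 before adjustment over all genes.

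The enzymes that open the 2 routes to NAD from vitamin precursors did not pass. Nampt, the salvage enzyme, was at 13.9, 15.0 and 18.5 FPKM in Sirt2-KO replicates 4, 7 and 8, against 15.2, 28.0 and 11.98 FPKM in WT replicates 2, 4 and 8. All Sirt2-KO values lay inside the WT range, whose top was set by WT replicate 4. The difference was -0.13 (95% interval -0.82 to 0.56, limma adjusted p = 0.791) and turned to 0.20 without WT replicate 4. That aorta also held 607 FPKM of summed heart and skeletal muscle markers, against 65.8 to 79.2 FPKM in the other 5. Its endothelial sum (799 FPKM, against 451 to 555 FPKM) was the highest too. The same held for Schwann cell and nerve markers (543 FPKM, against 148 to 423 FPKM) and brown adipocyte markers (1412 FPKM, against 167 to 1360 FPKM). The part of these cell types in the Nampt value was not tested.

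Naprt, the nicotinic acid enzyme, was at 11.4, 11.9 and 12.4 FPKM in Sirt2-KO replicates 4, 7 and 8, against 8.57, 10.6 and 7.87 FPKM in WT replicates 2, 4 and 8. The groups were apart, with a mean of 11.9 ± 0.505 FPKM in Sirt2-KO and 8.998 ± 1.40 FPKM in WT (SD, n = 3 each). With these SDs, Naprt reached the smallest variance of the table only because the groups differ. Its being apart therefore follows in part from how rows were kept, and its difference is given as a description. The difference was 0.37 (SE 0.142, 95% interval 0.04 to 0.71, limma adjusted p = 0.170). Eef1d, an elongation factor gene that shares 277 exonic bases with Naprt on the same strand, was at 114 ± 10.9 FPKM in Sirt2-KO and 97.4 ± 6.02 FPKM in WT (adjusted p = 0.295), so shared reads make the Naprt values uncertain.

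Parp1, the main poly(ADP-ribose) polymerase of the nucleus, varied least between replicates. It was at 12.7, 12.4 and 11.8 FPKM in Sirt2-KO replicates 4, 7 and 8, against 15.0, 13.4 and 15.1 FPKM in WT replicates 2, 4 and 8. Every Sirt2-KO value was below every WT value, with coefficients of variation of 3.85% in Sirt2-KO and 6.49% in WT. With SDs of 0.474 FPKM in Sirt2-KO and 0.943 FPKM in WT, Parp1 reached the smallest variance of the table only because the groups differ. That its groups were apart therefore follows in part from how rows were kept, and its difference is given as a description. The difference was -0.22 (SE 0.113, 95% interval -0.49 to 0.04, limma adjusted p = 0.262).

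Nnmt, the nicotinamide methyltransferase, which is abundant in fat and liver, was at 22.1, 25.1 and 22.2 FPKM in Sirt2-KO replicates 4, 7 and 8, against 32.2, 29.2 and 10.3 FPKM in WT replicates 2, 4 and 8. WT replicates 2 and 4 lay above all Sirt2-KO values and WT replicate 8 lay below them. The coefficient of variation was 7.28% in Sirt2-KO and 49.7% in WT. The difference was 0.10 (95% interval -0.82 to 1.02, limma adjusted p = 0.881) and became -0.39 without WT replicate 8. That aorta had the lowest summed white and brown adipocyte markers of the 6, at 905 and 167 FPKM, and its Adipoq was 18.1 FPKM against 93.0 and 85.7 FPKM in WT replicates 2 and 4. Summed white adipocyte markers were 9613 to 12790 FPKM in Sirt2-KO and 905 to 3386 FPKM in WT. Summed brown adipocyte markers were 537 to 1170 FPKM in Sirt2-KO and 167 to 1412 FPKM in WT. The part of fat content in the Nnmt values was not tested.

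Nnmt has 2 rows in the table. Row 1 was at 19.1, 22.7 and 19.7 FPKM in Sirt2-KO, against 23.4, 23.4 and 7.57 FPKM in WT. Row 2 was at 2.94, 2.34 and 2.49 FPKM in Sirt2-KO, against 8.72, 5.78 and 2.71 FPKM in WT. In FPKM both rows overlapped between the groups. As a share of the sum, row 2 made up 13.3%, 9.34% and 11.2% in Sirt2-KO and 27.1%, 19.8% and 26.4% in WT. These shares did not overlap between the groups, WT replicate 8 with its low sum included. Among 2981 genes with several rows, the share of the highest row was apart between the groups in 15.5%, and among the 4 such genes here it was apart in 1, Nnmt. This measure was chosen after its values were seen, so it is a description with no test.

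**Figure D4:**
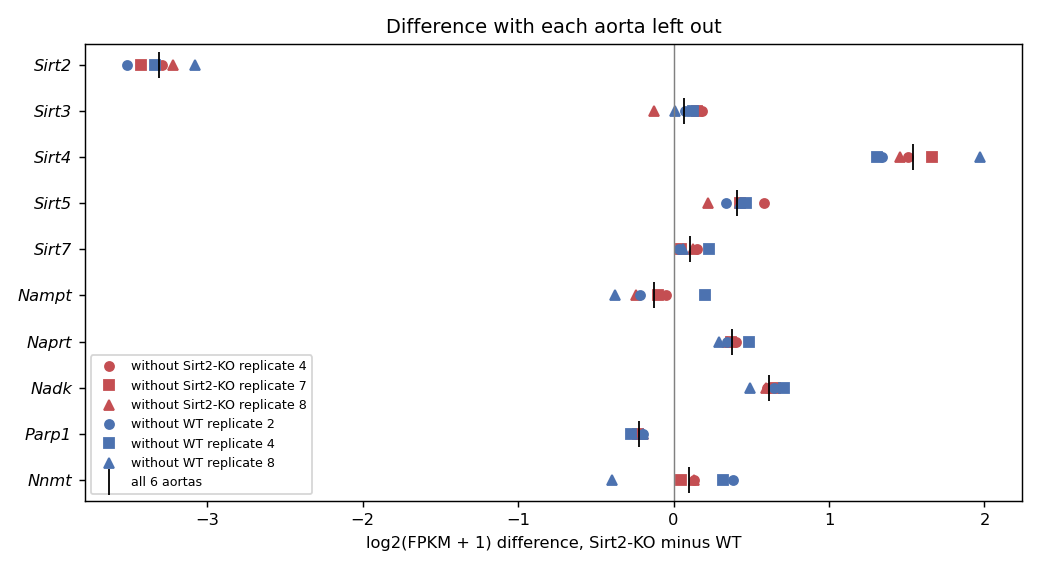
Difference of each gene on the log2(FPKM + 1) scale, Sirt2-KO minus WT, with all 6 aortas (black line) and with each aorta left out (red for a Sirt2-KO aorta, blue for a WT aorta). Sirt2 stayed between -3.51 and -3.08 and Nadk between 0.49 and 0.71, while Sirt3, Nampt and Nnmt crossed 0.

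In order of level, WT aortas had Sirt2 (36.6 FPKM) and Nadk (35.4 FPKM) at the top, then Nnmt, Nampt, Parp1, Sirt3, Sirt7, Naprt, Sirt5 and Sirt4. The ranges of Sirt2 and Nadk overlapped in WT, as did those of Nadk and Nnmt, Nnmt and Nampt, Nampt and Parp1, Sirt3 and Sirt7, and Sirt7 and Naprt. In Sirt2-KO aortas the order was Nadk, Nnmt, Nampt, Parp1, Naprt, Sirt3, Sirt7, Sirt5, Sirt4 and Sirt2. There Nadk (51.5 to 56.1 FPKM) stood clear of Nnmt (22.1 to 25.1 FPKM), and Nnmt stood clear of Nampt (13.9 to 18.5 FPKM). The ranges of Parp1 and Naprt, Naprt and Sirt3, and Sirt3 and Sirt7 overlapped there, and Sirt4 and Sirt2 overlapped at the bottom. Because rows with a small variance are not in the table, sums of different genes may be partial to different degrees.

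By root-mean-square difference of centred log2(FPKM + 1) over the 6 aortas, the genes closest to Sirt2 among 8604 others were Sparcl1 (0.63), Gm9625 (0.63) and Nnat (0.66). These genes were picked for following Sirt2 over the same aortas, so their own group differences restate that choice and are not tested here. Sparcl1, a matricellular protein gene, was at 215 ± 19.9 FPKM in Sirt2-KO and 981 ± 124 FPKM in WT (SD, n = 3 each). The closest to Nampt were Pear1 (0.06), Gngt2 (0.08) and the pseudokinase gene Trib3 (0.11), with Trib3 at 6.82 FPKM in WT replicate 4 against 2.04 to 3.17 FPKM in the other 5 aortas. The closest to Nnmt were Ppif, which encodes mitochondrial cyclophilin D (0.13), Gtpbp2 (0.13) and Shkbp1 (0.19). Ppif was at 6.09, 6.26 and 7.36 FPKM in Sirt2-KO and 9.73, 9.71 and 2.58 FPKM in WT, low in WT replicate 8 as Nnmt was.

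Other genes around NAD were taken from lists of the pathway, with 115 genes named and 67 of them tested. Of these 67, 2 were called higher and 1 lower by limma, beside 2.29% and 0.616% of all tested genes. The median difference was 0.04, against -0.08 over all tested genes. The groups were apart in 23 of 67, beside 33.3% of all tested genes. Sirt1 and Sirt6 were not analysed here.

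The called genes were Acss2, Acly and Nnt. Acss2, the cytosolic acetyl-CoA synthetase and a known target of sirtuin deacetylation, was at 59.3, 96.5 and 98.2 FPKM in Sirt2-KO replicates 4, 7 and 8, against 9.95, 10.4 and 8.11 FPKM in WT replicates 2, 4 and 8. The groups were far apart, with an 8.94-fold ratio of means (difference 3.003, SE 0.215, limma adjusted p = 0.00156), and the highest row alone gave a difference of 4.38. Acly, the ATP citrate lyase and a known substrate of Sirt2, was at 186, 323 and 399 FPKM in Sirt2-KO, against 38.6, 37.1 and 34.5 FPKM in WT (difference 2.94, adjusted p = 0.00455). Both belong to the list of 27 tested sirtuin substrates, of which 2 were called, both higher, beside 2.29% of all tested genes called higher. Acly is also on the white adipocyte list. That list stood at 9613 to 12790 FPKM in Sirt2-KO and 905 to 3386 FPKM in WT, and its part in these rises was not tested.

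Nnt, the mitochondrial transhydrogenase that makes NADPH from NADH, was at 6.30, 6.41 and 4.70 FPKM in Sirt2-KO, against 21.3, 18.0 and 27.8 FPKM in WT. Each Sirt2-KO value was under each WT value (difference -1.77, SE 0.193, limma adjusted p = 0.00999), but adjusted p was 0.0540 when Sirt2-KO replicate 7 was left out and 0.0602 when replicate 8 was. Most tested markers of some cell types also had negative differences. For Schwann cells and nerve, 10 of 11 tested markers had a negative difference and 2 were called lower (median -1.25). Sums were 148 to 273 FPKM in Sirt2-KO and 178, 543 and 423 FPKM in WT replicates 2, 4 and 8. For smooth muscle, 12 of 13 were negative and 0 were called by limma (4 at an unadjusted p under 0.05), with sums of 10340 to 17780 FPKM in Sirt2-KO and 11490 to 21010 FPKM in WT. For endothelium, 10 of 13 were negative and 0 were called by limma (3 at an unadjusted p under 0.05). For heart and skeletal muscle, 10 of 10 were negative and 1 was called. Sums were 68.7 to 75.9 FPKM in Sirt2-KO and 79.2, 607 and 65.8 FPKM in WT replicates 2, 4 and 8. The part of these cell types in the Nnt values was not tested, nor was that of substrain, which the labels do not give. Of 5 tested genes in its list of NADP and NAD conversion and repair, Nnt alone was called, beside 0.616% of all tested genes called lower, and the median difference was 0.30.

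In the other 5 lists limma called 0 genes. Those with an unadjusted p under 0.05 numbered 2 of 3 for synthesis and salvage and 3 of 11 for consumers and ADP-ribose hydrolases. They numbered 1 of 4 for clearance, 0 of 5 for precursor transport and handling and 4 of 12 for shuttles. The share over all tested genes was 24.8%. Of 3 tested genes of NAD synthesis and salvage, Pnp (25.5 ± 3.20 FPKM in Sirt2-KO and 17.2 ± 4.16 FPKM in WT) and Pnp2 (4.403 ± 0.437 FPKM in Sirt2-KO and 2.68 ± 0.590 FPKM in WT) were apart, with limma adjusted p of 0.154 and 0.189. Pnp2 reached the smallest variance of the table only because the groups differ. That its groups were apart therefore follows in part from how rows were kept. Pnp and Pnp2 encode similar purine nucleoside phosphorylases, and their reads can be split between them. The next list held 11 tested genes, other NAD consumers together with ADP-ribose hydrolases. In it, the ADP-ribosyltransferase family gene Art3 was at 36.9 ± 11.7 FPKM in Sirt2-KO and 81.0 ± 19.9 FPKM in WT (difference -1.13, limma adjusted p = 0.0699). Art3 passed in 3 of 19 alternatives. These were without Sirt2-KO replicate 4 (adjusted p = 0.0401), with sample weights (0.0174) and from the highest row alone, where the difference was -1.99 (0.0484). Macrod1, an ADP-ribose hydrolase, was at 47.0 ± 6.89 FPKM in Sirt2-KO and 33.1 ± 1.498 FPKM in WT (adjusted p = 0.0973).

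Of 4 tested genes of nicotinamide clearance and methyl donor supply, Mat2b (difference -0.32) and Ahcyl2 (0.29) had the smallest p, with limma adjusted p of 0.150 and 0.272. The list of NAD precursor transport and handling had 5 tested genes. Of these, the enzyme gene Enpp1 (-0.53) and the nucleoside transporter Slc29a1 (-0.19) had limma adjusted p of 0.305 and 0.364. Of 12 genes of the NADH shuttles and lactate dehydrogenases, Ldha was at 360 ± 69.9 FPKM in Sirt2-KO and 221 ± 46.9 FPKM in WT (difference 0.70, adjusted p = 0.118), and Ldhd differed by 0.91 (adjusted p = 0.139). The sums of the members of this list were 1094, 1121 and 1757 FPKM in Sirt2-KO and 1048, 1124 and 584 FPKM in WT, overlapping between the groups and lowest in WT replicate 8.

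**Figure D5:**
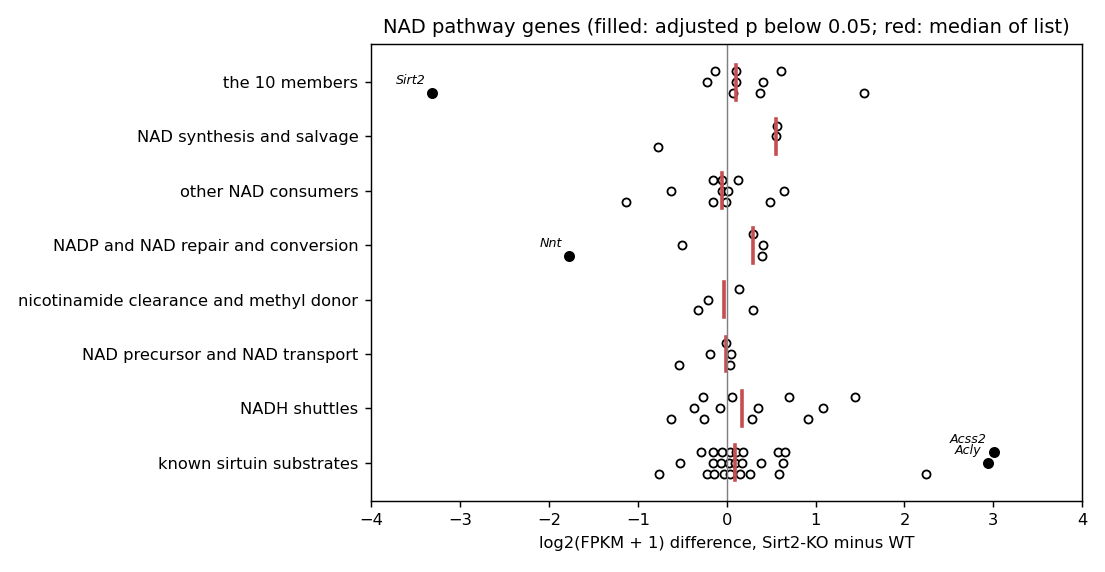
Difference of each tested gene on the log2(FPKM + 1) scale, Sirt2-KO minus WT, for the 10 genes and the 7 pathway lists with tested members; filled points passed an adjusted p of 0.05 in limma and red lines are list medians. Sirt2 and Nnt were called lower, and Acss2 and Acly higher.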

How the data were processed

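RNA sequencing of 3 Sirt2-KO and 3 WT aortas was analysed, and sample titles gave the groups and replicate numbers. The deposited values are FPKM, 1 column per sample, per the file headers. The submitters' processing notes list Bowtie 0.12.2 and mm9 without a role, and name no quantifier, annotation, strand setting or filter. Of 14083 rows, 39 with a date as name were left out. Rows of a name were summed, and features with a mean of at least 1 FPKM were tested with limma 3.58.1 in R 4.3.3 (eBayes with trend, log2(FPKM + 1), two-sided, Benjamini-Hochberg over all features, threshold 0.05), once on sums and once on single rows. A pseudocount of 1 understates the change of low genes. The members, lists and tests were chosen with earlier results of these data known, so no test over the members alone is given. Named genes are the 10 members, called pathway genes or else the 2 smallest p per list, and the 3 closest profiles to Sirt2, Nampt and Nnmt; Apoa1bp, and genes sharing exons with members, were added after their values were seen. Exon overlaps come from GENCODE on GRCm38, promoters from RefSeq on GRCm38.p6; that build differs from mm9, so neither was joined to coordinates of the table. Both fits were checked on simulated Sirt2-KO against WT values. Over 8605 gene sums limma recovered 51 of 100 log2 changes of 1 and 78 of 100 of 2, and called 11 unchanged genes. Over 13627 rows these numbers were 16, 46 and 3. The simulated noise was independent between genes and of equal spread in both groups, so these numbers hold for that setting only. Alternatives covered pseudocounts, filters, scaling, spread models, sample weights, replicate number as a block, each mouse left out, and the highest row per gene. The limma p-values set each group difference against the spread between mice, moderated by a trend over all tested features. Figures were drawn with matplotlib 3.10.9.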

Additional observations from a re-analysis of the deposited data

How the results depend on the processing

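Over 19 alternatives, exactly 1 of the 10 genes, Sirt2, was called in 16. Sample weights (arrayWeights) called 2, adding Nadk, and a minimum mean of 20 FPKM called 0 of 2, since Sirt2 averaged less (1 at an unadjusted p under 0.05). With each mouse left out the count was 1. Among rows of the 10 genes, 0 were called with a pseudocount of 0.1 (4 unadjusted) or a minimum of 20 FPKM (1 unadjusted), and 0 to 1 without single mice (1 without Sirt2-KO replicate 4). Called pathway genes numbered 8 with arrayWeights and 2 to 5 without single mice (5 without Sirt2-KO replicate 4). Over all genes, 250 were called, against 141 with a minimum of 20 FPKM, 1114 with arrayWeights, 151 from the highest row and 28 to 342 without single mice (28, 29, 71 and 148 without Sirt2-KO replicates 7 and 8 and WT replicates 2 and 8). Over all rows, 116 were called, against 77 with a pseudocount of 0.1, 273 with arrayWeights and 26 to 136 without single mice (26, 27, 49 and 42 without Sirt2-KO replicates 7 and 8 and WT replicates 2 and 4).

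Replicate numbers 4 and 8 occur in both genotypes. Deviations from the group means correlated at -0.049 and -0.452 for same-numbered aortas. So few aortas cannot settle whether the numbers mark pairs, and the main fit took them as unpaired. A replicate block, in which WT replicate 2 and Sirt2-KO replicate 7 carry no weight, called 0 members in limma (1 unadjusted; Sirt2 -3.63, adjusted p = 0.0792), 0 of their rows (2 unadjusted), 0 pathway genes (8 unadjusted), 3 genes in all and 0 rows in all (958 unadjusted). It also reversed Sirt7 (-0.0246) and its row 1 (0.177). Of 764 single differences under alternatives, 24 changed sign, all in genes or rows that were not called. Sirt7 did so from its highest row (-0.0963), Ppif with a pseudocount of 5 (-0.0301) and equal column sums (-0.0143), and Pear1 with quantile normalization (0.004), median-of-ratios scaling (0.0288), arrayWeights (0.0471) and its highest row (0.0489). Without single mice, Sirt3 ranged from -0.125 to 0.1811, Nampt from -0.3748 to 0.204, Nnmt from -0.3941 to 0.3838 and its row 1 from -0.1861 to 0.5704. Sirt7 row 1 ranged from -0.5605 to 0.4934 and row 2 from -0.1444 to 1.1082. Of the like-patterned genes, Gngt2 ranged from -0.2912 to 0.242, Gtpbp2 from -0.2607 to 0.345, Pear1 from -0.2432 to 0.2638, Ppif from -0.5059 to 0.2852, Shkbp1 from -0.1034 to 0.4474 and Trib3 from -0.4762 to 0.2063. The causes were not tested. With no counts, the precision of low genes such as Sirt4 is unknown.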
